A study of Mus musculus with 5 samples.

Results

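Expression of 31 DNA damage response and repair genes was compared in mouse embryonic fibroblasts (MEFs, connective-tissue cells cultured from embryos). The genes were chosen by name, from their known roles, with earlier results of these data known. They were grouped as 5 checkpoint genes, 15 genes of homologous recombination and the Fanconi pathway, 4 end-joining genes and 7 genes of mismatch and excision repair. All 31 were found among the 61082 loci of the expression tables, 28 of them at loci holding a single gene, of 22894 such loci in all. The other 3 lay at loci that the authors' assembly joined with a neighbour: Chek1 with Stt3a, Xrcc6 with Desi1 and Ercc2 with Mir343. Their values cannot be separated from those of the partner.

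The study asked how Meis1 and Prep1, a pair of TALE homeobox transcription factors that bind related DNA motifs, change expression in these cells. Cells of 4 lines came from C57BL/6 embryos (E14.5) with a Prep1 hypomorphic genotype, an allele of reduced expression. The EV line received an empty vector, and the others were labelled as overexpressing Meis1 (M), Prep1 (P) or the pair together (MP). The fifth line (WT) carried wild-type Prep1, was given the same strain, and had no vector named. All 5 lines were at passage 30, and each was sequenced as 1 library. Without replicates no p-value is given, and each comparison is between 2 libraries. WT differed from the other lines in genotype, in line of origin and in infection, and these cannot be told apart. The growth protocol names hypomorphic embryos for every sample, WT included. Levels are FPKM (fragments per kilobase of transcript, set to library size, as estimated by the authors), scaled so that the upper quartile of the loci in each library is 10. FPKM is per length. The spread of levels was narrow, as given below, so levels of different genes are not read as relative amounts. Ratios are log2((level + 1)/(level + 1)).

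DNA damage is read by the kinases ATM and ATR, which answer breaks and stalled replication forks and pass the signal to CHK2 and CHK1 to hold the cell cycle. Breaks are mended by homologous recombination, which copies the sister DNA and works while DNA is replicated, or by end joining, which ligates the ends directly in any phase. Mismatch repair and the excision pathways replace wrong or altered bases, and many repair genes are transcribed along with the replication machinery in dividing fibroblasts.

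Some facts of the whole series touch every value. Before scaling, M had an upper quartile of 429 FPKM and EV of 157, against 9.63 to 12.2 in the other libraries, so EV and M stood apart from the other libraries in deposited level. The spread of levels was narrow, with the 99th percentile at 1.75 to 2.10 times the upper quartile. Ratios of well-expressed genes may be compressed as well, which was not tested. Meis1 followed its labels, at 16.8 in M and 15.4 in MP, with 12.4 in WT, 8.86 in P and 8.32 in EV. Pknox1, which encodes Prep1, did not: it stood at 0.55 in the library labelled P and 0.57 in the library labelled MP, below 2.16 in EV and 3.25 in M, and at 11.0 in WT. P and MP therefore mean the libraries labelled so, and no direction below can be assigned to added Prep1. Of 13 fibroblast markers, 11 reached 1 scaled unit in each hypomorphic line and 13 in WT; Fap and Lum were the markers under 1 in the hypomorphic lines. No endothelial marker of 4 and no muscle marker of 5 reached 1 in any library. Of 7 haematopoietic markers, 2 reached 1 in each hypomorphic line and 3 in WT, while Ptprc stayed at or under 0.36. Of 5 neural markers, 2 reached 1 in every library, and of 5 epithelial markers, 1 did so in P alone. In bulk libraries fewer cells of a type and less RNA per cell cannot be told apart.

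The repair genes were expressed in all 5 libraries and differed little among them. Every member stood at 4 or more in every library, and 28 stood at 5 or more. Their median level was 10.7 in EV, 11.0 in P, 10.6 in WT, 11.1 in M and 10.3 in MP. Set against EV, no member was 1.5-fold higher or lower in M, P or MP. In M, 1.56% of the single-gene loci kept were at least 1.5-fold higher, 2.89% lower and 1.03% at least 2-fold apart. In the library labelled P these shares were 2.42%, 5.25% and 2.7%, and in the library labelled MP 1.1%, 5.5% and 2.55%. In WT, Prkdc was the member at least 1.5-fold higher, against 13.5% of loci, and Chek1 the member at least 1.5-fold lower, against 9.53% of loci. No member was 2-fold apart in WT, against 9.4% of loci. All 4 comparisons share the EV library.

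**Figure D1:**
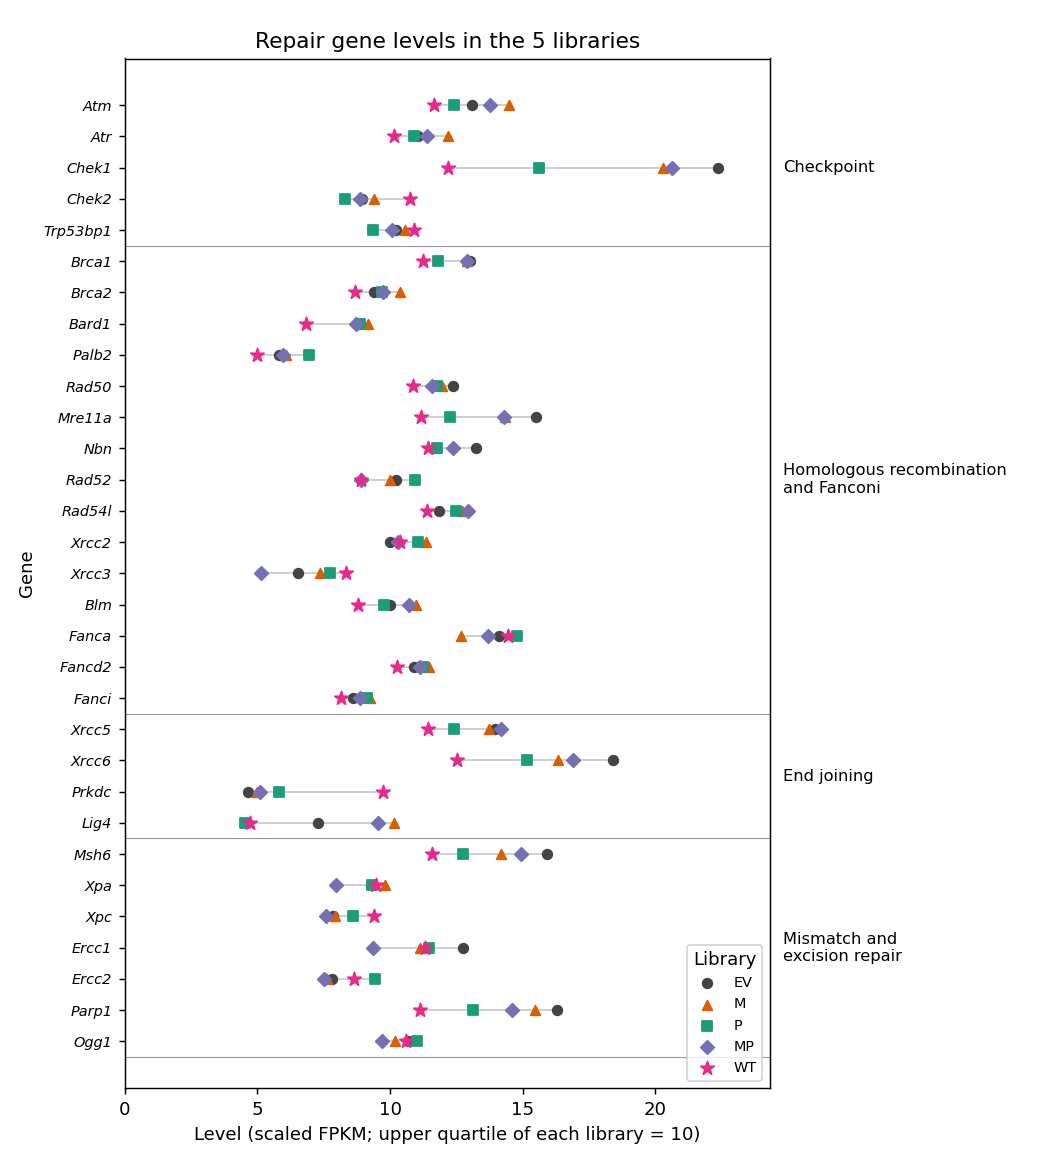
Level of each of the 31 repair genes (rows, grouped by role) in scaled FPKM on the horizontal axis, with 1 symbol per library and a grey line from the lowest to the highest. Chek1, Prkdc, Lig4 and Xrcc3 have the longest lines by ratio, and WT is the lowest symbol for 18 genes.

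A highest library at least 1.5-fold above the lowest was seen for 4 members (Chek1, Xrcc3, Prkdc and Lig4) and at 36.1% of loci of any level. Beside loci of like mean level, the members' range was less distinct. The median log2 ratio of highest to lowest library was 0.77 for members at 4 to 8, against 0.57 for loci. It was 0.26 against 0.32 at 8 to 12, and 0.29 against 0.35 at 12 to 20. The median ratio to EV over the members was -0.15 in WT, 0.04 in M and -0.02 in both P and MP. Over all loci kept it was -0.05 in WT, -0.00 in M and -0.04 in both P and MP. When the libraries were scaled to their median instead, the loci medians were -0.66 in WT, -0.06 in M, -0.27 in P and 0.07 in MP and the member medians -0.50 in WT, 0.11 in M, 0.02 in P and 0.41 in MP, so the members' median lay above that of the loci in each comparison on that scale. The sign of a single small ratio thus depends on the scaling: 7 members changed sign in WT, 18 in MP, 2 in P and 5 in M.

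**Figure D2:**
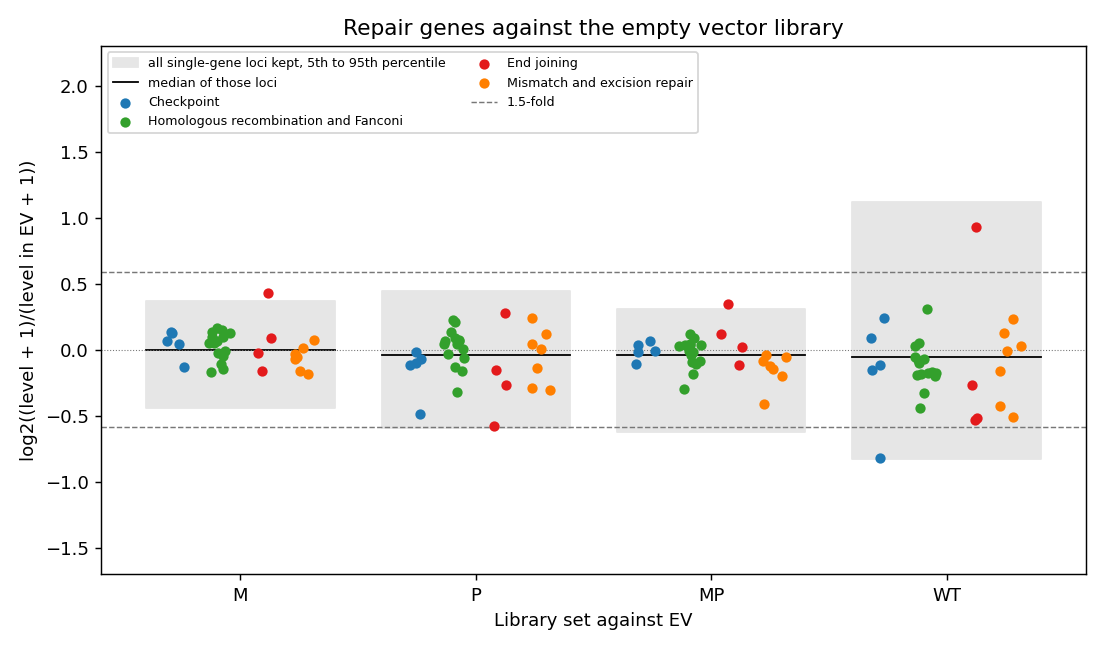
Log2 ratio to EV of each repair gene in the other libraries, coloured by role, over a grey band from the 5th to the 95th percentile of the single-gene loci kept and a line at their median. Dashed lines mark 1.5-fold, which is passed in WT by Prkdc above and Chek1 below and by no member in M, P or MP.

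The apical checkpoint kinases were even across the libraries. Atm, the kinase that answers DNA breaks, stood at 13.1 in EV, 12.4 in P, 11.7 in WT, 14.49 in M and 13.8 in MP. Atr, the kinase of stalled forks, stood at 11.1 in EV, 10.9 in P, 10.1 in WT, 12.2 in M and 11.4 in MP. Both were highest in M and lowest in WT, with ratios of WT to EV of -0.15 and -0.11. Chek1, the effector kinase below ATR, had the widest difference of the checkpoint genes. Its joined locus stood at 22.4 in EV, 15.6 in P, 12.2 in WT, 20.3 in M and 20.6 in MP. WT was lowest and P next, with log2 ratios to EV of -0.82 and -0.49. Among loci of like mean level (12 to 20), 1.66% had a ratio of WT to EV as low. The authors' program, Cuffdiff, gave this locus the status FAIL in every comparison with EV. Stt3a, a subunit of the oligosaccharyltransferase, shares this locus, and its part in the value was not tested. Chek2, the effector kinase below ATM, lay the other way, at 8.94 in EV, 8.28 in P, 10.8 in WT, 9.40 in M and 8.85 in MP. Trp53bp1, which encodes the break-binding protein 53BP1, stood at 10.2 in EV, 9.35 in P, 10.9 in WT, 10.6 in M and 10.1 in MP. Both were highest in WT, by 0.24 and 0.09 over EV, and their ratios were -0.08 and -0.25 when the libraries were scaled to their median. On that scale all loci shifted to -0.66, and Chek2 and Trp53bp1 lay 0.58 and 0.41 above the loci median.

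The recombination genes began with the complex that senses and trims broken ends. Mre11a, its nuclease, stood at 15.5 in EV, 12.2 in P, 11.1 in WT, 14.3 in M and 14.3 in MP. Rad50, its ATPase, stood at 12.4 in EV, 11.8 in P, 10.9 in WT, 11.95 in M and 11.6 in MP. Nbn, the subunit that recruits ATM, stood at 13.2 in EV, 11.8 in P, 11.4 in WT, 11.7 in M and 12.4 in MP. All 3 were highest in EV and lowest in WT. Mre11a had the lowest ratio of WT to EV among the recombination genes, -0.44, against -0.17 for Rad50 and -0.20 for Nbn.

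The BRCA genes direct the end toward recombination. Brca1 stood at 13.0 in EV, 11.8 in P, 11.3 in WT, 12.9 in M and 12.9 in MP. Its partner Bard1 stood at 8.81 in EV, 8.86 in P, 6.82 in WT, 9.18 in M and 8.71 in MP. Brca2, a mediator of strand exchange, stood at 9.39 in EV, 9.71 in P, 8.67 in WT, 10.4 in M and 9.71 in MP. Palb2, the link between BRCA1 and BRCA2, stood at 5.81 in EV, 6.94 in P, 4.999 in WT, 6.06 in M and 5.97 in MP. WT was lowest for each of these 4 genes, and the lowest ratio to EV was -0.33, for Bard1.

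Among the genes of strand exchange, Rad54l, a motor of strand invasion, stood at 11.8 in EV, 12.5 in P, 11.4 in WT, 12.7 in M and 12.9 in MP. Rad52, which anneals single strands, stood at 10.2 in EV, 10.9 in P, 8.92 in WT, 10.0 in M and 8.88 in MP. Xrcc2, which helps set up strand exchange, stood at 9.99 in EV, 11.0 in P, 10.4 in WT, 11.3 in M and 10.3 in MP. These genes differed by 0.27 or less on the log2 scale between any libraries. Xrcc3, which acts in the same step, varied more, at 6.54 in EV, 7.75 in P, 8.34 in WT, 7.36 in M and 5.14 in MP. MP was lowest and WT highest, 0.60 apart on the log2 scale, and 45.8% of loci of its mean level (4 to 8) varied as widely.

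Blm, the helicase that dissolves recombination intermediates, stood at 9.99 in EV, 9.76 in P, 8.80 in WT, 11.0 in M and 10.7 in MP. Fanca, of the Fanconi core complex that acts at crosslinks, stood at 14.1 in EV, 14.8 in P, 14.4 in WT, 12.7 in M and 13.7 in MP. It was the recombination gene with the highest level in WT, and 0.03 over EV there. The paired Fanconi proteins that are ubiquitinated by that complex were nearly flat. Fancd2 stood at 10.9 in EV, 11.2 in P, 10.3 in WT, 11.4 in M and 11.1 in MP. Fanci stood at 8.60 in EV, 9.12 in P, 8.15 in WT, 9.25 in M and 8.86 in MP. Both were lowest in WT, with ratios to EV of -0.08 and -0.07. Of the 15 recombination genes 12 were lower in WT than in EV (all but Xrcc2, Xrcc3 and Fanca), against 54.6% of all loci kept, and 51.4% and 88.9% of those at mean levels of 8 to 12 and 12 to 20, where most of these genes lie. Scaled to their median, where all loci shifted to -0.66, Xrcc2 and Fanca stood below EV but 0.37 and 0.35 above the loci median.

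End joining held Lig4 and Prkdc, the members with the widest ranges. Ku, the ring that caps a broken end, is formed by the products of Xrcc6 (Ku70) and Xrcc5 (Ku80). Xrcc5 stood at 13.9 in EV, 12.4 in P, 11.4 in WT, 13.7 in M and 14.2 in MP. The joined locus of Xrcc6 stood at 18.4 in EV, 15.2 in P, 12.5 in WT, 16.3 in M and 16.9 in MP. Both were lowest in WT and next lowest in P, with ratios of WT to EV of -0.26 and -0.52. Prkdc, which encodes the DNA-dependent protein kinase that Ku recruits, had the opposite order. It stood at 4.63 in EV, 5.83 in P, 9.74 in WT, 4.998 in M and 5.11 in MP. The 4 hypomorphic lines lay close together and WT above them all, by 0.93 over EV and 0.65 over P. Among loci of mean level 4 to 8, 9.04% had a ratio of WT to EV as high and 22.9% varied as widely over the libraries. Scaling to the median left Prkdc 0.71 above EV. Mcm4, the neighbour of Prkdc in the annotation and a replicative helicase subunit, was lowest in WT, at 16.0 in EV, 11.5 in P, 8.85 in WT, 14.6 in M and 14.3 in MP.

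Lig4 encodes the ligase that closes the break, and was the member that varied most. It stood at 7.28 in EV, 4.54 in P, 4.71 in WT, 10.1 in M and 9.53 in MP. Both libraries with added Meis1 lay above the other 3, and P and WT lay below EV. Its log2 ratios to EV were -0.54 in WT, -0.58 in P, 0.43 in M and 0.35 in MP, and all 4 kept their sign when the libraries were scaled to their median. MP stood 0.93 above P and -0.08 from M. The lower of M and MP was 0.35 above the highest of EV, P and WT, and 0.673% of loci of mean level 4 to 8 had a gap as wide. Lig4 had the widest such gap of the 31 members, so that share belongs to a gene picked by its gap. Of the same loci, 19.7% varied as widely over the 5 libraries and 7.60% had a ratio of WT to EV as low.

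**Figure D3:**
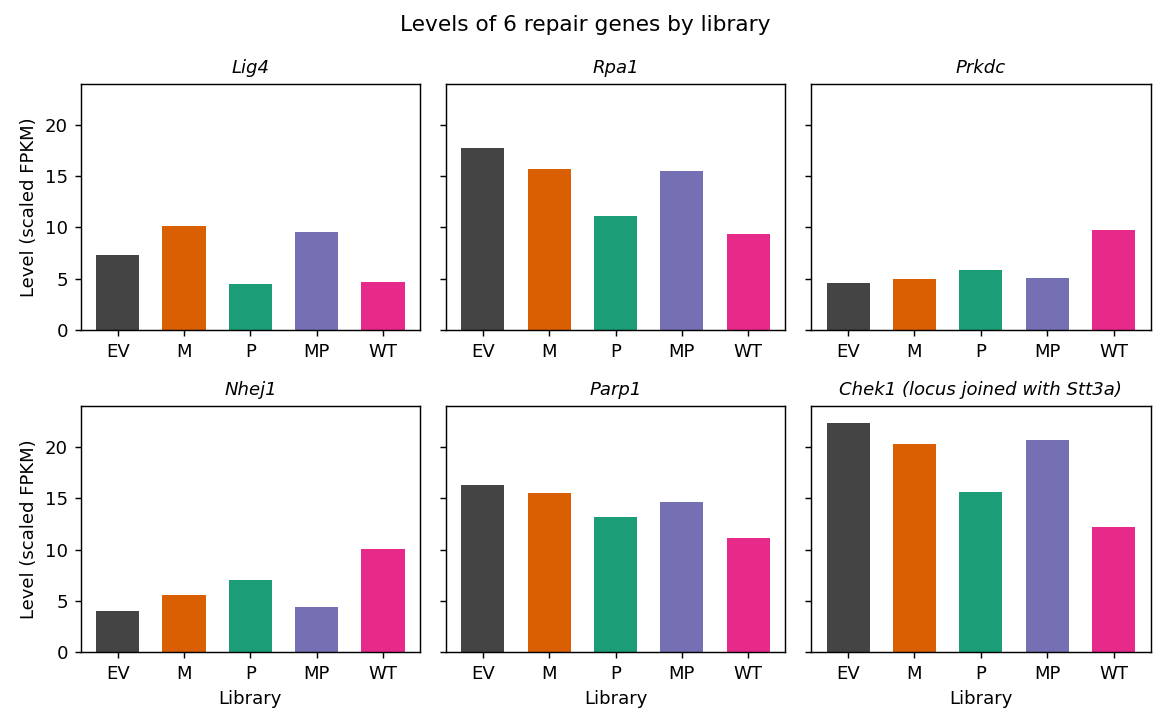
Bars give the level in scaled FPKM, from 0, of 6 repair genes in each library; there is 1 library per bar and no error bar. Lig4 is highest in M and MP, Prkdc and Nhej1 are highest in WT at 9.74 and 10.0, and Rpa1, Parp1 and the joined Chek1 locus are lowest in WT at 9.32, 11.1 and 12.2.

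Among the mismatch and excision genes, Parp1, the sensor of single-strand breaks, stood at 16.3 in EV, 13.1 in P, 11.1 in WT, 15.5 in M and 14.6 in MP. Msh6, which reads base mismatches, stood at 15.9 in EV, 12.7 in P, 11.6 in WT, 14.2 in M and 14.9 in MP. Both were highest in EV, lowest in WT and next lowest in P, with ratios of WT to EV of -0.51 and -0.43. The genes of nucleotide excision, which removes bulky lesions, are Xpc, Xpa, Ercc1 and Ercc2. Xpc, which finds the lesion, stood at 7.85 in EV, 8.59 in P, 9.39 in WT, 7.93 in M and 7.60 in MP. Xpa, which checks it, stood at 9.27 in EV, 9.32 in P, 9.47 in WT, 9.80 in M and 7.96 in MP. Both were lowest in MP, and Xpc was highest in WT, by 0.23 over EV.

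The joined locus of Ercc2, a helicase of TFIIH, stood at 7.81 in EV, 9.43 in P, 8.63 in WT, 7.63 in M and 7.50 in MP. Ercc1, part of the nuclease that cuts beside the lesion, stood at 12.7 in EV, 11.5 in P, 11.3 in WT, 11.1 in M and 9.35 in MP. Ogg1, the glycosylase that removes oxidised guanine, stood at 10.7 in EV, 11.0 in P, 10.6 in WT, 10.2 in M and 9.68 in MP. MP was the lowest library for each of these 3, most for Ercc1 at -0.41. All 4 nucleotide excision genes were thus lowest in MP, as were Ogg1, Rad52 and Xrcc3. In all, MP was the lowest library for 7 of the 31 members, against 22.8% of loci, and for 0 members when the libraries were scaled to their median. The 7 mismatch and excision genes were below EV in MP, against 59.1% of loci, and every one but Ercc1 was above EV after median scaling, where the loci median was 0.07.

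WT was the lowest of the 5 libraries for 18 of the 31 members, against 39.7% of loci of any level. No share of this order was taken over loci of like level, so no excess is read from it. At mean levels of 12 to 20, where 11 members lie, 88.9% of loci were lower in WT than EV and 85.1% lower than P. At 8 to 12 these shares were 51.4% and 56.3%, and at 4 to 8 they were 28.2% and 37.7%. Among the 18 were Atm, Atr and Chek1, the MRE11 complex, the BRCA genes, Fancd2, Fanci, both Ku genes, Msh6 and Parp1. By definition these 18 members lay below both P and MP, whose deposited level was like that of WT. No further member did, against 44.4% of loci. WT was the highest library for 5 members (Chek2, Trp53bp1, Xrcc3, Prkdc and Xpc), against 30.9% of loci. These counts were 29 and 1 (Prkdc) when the libraries were scaled to their median, where 46.8% and 8.80% of loci had these orders, and 6 and 0 on the values as deposited, against 14.8% and 0.21% of loci. Set against the library labelled P, no member was 1.5-fold lower in WT, against 3.54% of loci, and Prkdc was 1.5-fold higher, against 10.9%. The median ratio of WT to P was -0.11 over the members and -0.04 over the loci.

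Expression level moved with the ratio of WT to EV across all genes, so the members were set beside loci of like mean level over the 5 libraries. For the 4 members at 4 to 8 (Palb2, Xrcc3, Prkdc and Lig4) the median ratio was 0.06, against 0.26 for 2079 loci. For the 16 members at 8 to 12 it was -0.07, against -0.01 for 3133 loci. For the 11 members at 12 to 20 it was -0.26, against -0.27 for 3727 loci, of which 88.9% were below 0. In that range every member but Fanca was below 0. Parp1, Msh6, Mre11a and Xrcc6 lay below the loci median of that range, where 13.9%, 23.5%, 21.7% and 13.5% of the loci had ratios as low.

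**Figure D4:**
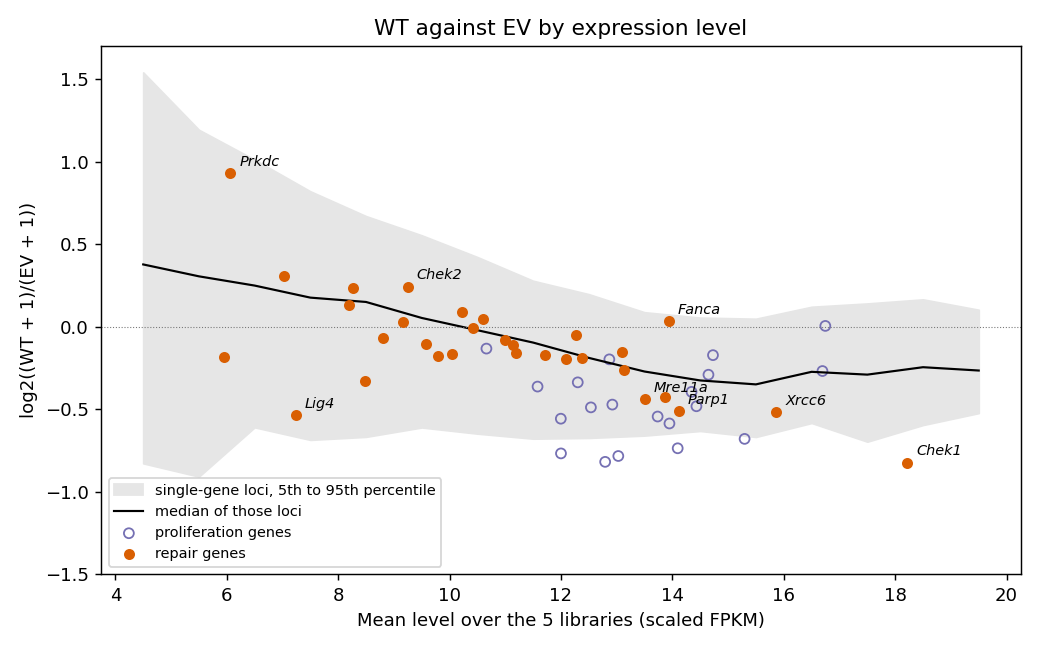
Log2 ratio of WT to EV (vertical) against the mean level over the 5 libraries in scaled FPKM (horizontal) for the repair genes (filled) and 20 proliferation genes (open), over the 5th to 95th percentile band and the median line of the single-gene loci. The median line passes from above 0 to below 0 as the level increases; Chek1 at -0.82 lies below the band, and Prkdc at 0.93 inside it.

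The split by Meis1 was sought next. M and MP were both above EV, P and WT for 6 members, against 14.45% of loci: Atm, Atr, Brca2, Rad54l, Blm and Lig4. They were both below for 4, against 14.8%: Fanca, Ercc1, Ercc2 and Ogg1. Lig4 had the widest gap, and those of the other 5 higher genes were 0.09 or less on the log2 scale. Of members at least 1.5-fold apart between MP and M there were none, against 0.837% of loci higher and 3.69% lower. Between MP and P, Lig4 was higher, against 1.37% of loci, and none was lower, against 5.94%. P and WT were both below EV, M and MP for 11 members, against 30.5% of loci, and both above for 5, against 20.3%. The 11 were Atm, Atr, Chek1, Brca1, Mre11a, Blm, Xrcc5, Xrcc6, Lig4, Msh6 and Parp1. Pknox1 itself was at 11.0 in WT and 0.55 in the library labelled P.

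Other genes of the same pathways were described beside the members. Of 14 further checkpoint genes, Tipin, a fork-protection factor, was 1.5-fold lower in WT than EV (-0.81), against 9.53% of loci. Topbp1 (-0.55), the activator of ATR, and Clspn (-0.24), the adaptor of CHK1, followed. Wee1 (0.25), Atrip at a locus joined with Trex1 (0.16) and Rad9a (0.15) had the highest ratios, and the list's median was -0.09. Of 28 further recombination genes, Rpa1, the large subunit of the single-strand binding protein RPA, was 1.5-fold lower in WT (-0.86) and in P (-0.63). Of all loci, 9.53% were 1.5-fold lower in WT and 5.25% in P. Rpa1 stood at 17.8 in EV, 11.1 in P, 9.32 in WT, 15.7 in M and 15.5 in MP. Rpa2 followed at -0.45 and Top3a at -0.29, and Fancc (0.53), Rad51c (0.36) and Fancf (0.35) had the highest ratios, around a median of 0.00.

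Of 6 further end-joining genes, Nhej1, which encodes the scaffold XLF, was 2-fold higher in WT, where 9.4% of loci were 2-fold apart. It stood at 4.05 in EV, 6.99 in P, 10.0 in WT, 5.57 in M and 4.41 in MP, with log2 ratios to EV of 1.13 in WT and 0.66 in P. It shared with Prkdc a WT level above every hypomorphic line. Poll was next at 0.31, and Polm was lowest at -0.36.

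Of 29 further mismatch and excision genes, 2 were 1.5-fold higher in WT, against 13.5% of loci, and none was 1.5-fold lower, against 9.53%. The 2 were Mutyh, a glycosylase (0.83), and Ddb2, a sensor of ultraviolet damage (0.66). Neil1 followed at 0.51, and Apex1 (-0.56), Ddb1 at a locus joined with Vwce (-0.50) and Lig1 (-0.46) were lowest, around a median of -0.12. The levels of Mutyh, Ddb2, Neil1 and Apex1 were under 10 in every library. Of 17 genes of the p53 response, Sesn2 was 1.5-fold higher in WT (0.60) and Aen 1.5-fold lower (-0.82), against 13.5% and 9.53% of loci. The cell-cycle inhibitor Cdkn1a stood at 3.41 in EV, 3.00 in P, 5.48 in WT, 5.28 in M and 5.09 in MP, or 0.55 over EV in WT. Trp53inp1 (0.43), Zmat3 (-0.50) and Pmaip1 (-0.46) were the other ends of the list, whose median was -0.11.

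Proliferation genes stood further below EV in WT than the repair genes did. Of 20, 6 were 1.5-fold lower in WT than EV, against 9.53% of loci, and the median was -0.48. At mean levels of 12 to 20, where 17 of them lie, their median was -0.48, against -0.26 over the 11 members and -0.27 over the loci of that range. Mcm6 (-0.82), Mcm4 (-0.78) and Top2a (-0.77) were lowest. In P the median of the 20 was -0.35, against -0.17 over the loci at 12 to 20, with Top2a at -0.64. The part of proliferation in the members' values was not tested.

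RefSeq promoters (build GRCm38.p6, 250 bases before the start) were matched by symbol for 25 of the 31 member genes and searched on both strands. A member gene, of which some have several promoters (27 in all), counted if any matched. The shares over all promoters are per promoter, so the units differ. The Meis and Prep hexamer TGACAG was found in 4 genes, or 16% (Palb2, Parp1, Trp53bp1 and Xrcc6), against 15.9% of 32851 promoters. The AP-1 motif TGANTCA was found in 0 members, against 6.75% of promoters, and the E2F motif TTTGGCGC or TTTCGCGC in 0, against 0.654%. The NF-Y motif CCAAT was found in 13 members, or 52%, against 33.8%. No match of TGACAG can share bases with a match of TGANTCA, and a match is a description of the sequence, not a bound site. Only windows free of annotated exons could be shown, which left out Mre11a and the more upstream start of Lig4. Parp1 and Msh6 are shown because their ratios in WT were among the lowest of the single-gene members with such a window. Lig4 is shown, at the more downstream of its annotated starts, because M and MP set it apart. Capitals mark TGACAG or CCAAT on either strand, read 5′ to 3′ along the gene's strand. Parp1 lies at chr1:180568641-180568890 on the plus strand, Msh6 at chr17:87974800-87975049 on the plus strand and Lig4 at chr8:9976312-9976561 on the minus strand.
Parp1: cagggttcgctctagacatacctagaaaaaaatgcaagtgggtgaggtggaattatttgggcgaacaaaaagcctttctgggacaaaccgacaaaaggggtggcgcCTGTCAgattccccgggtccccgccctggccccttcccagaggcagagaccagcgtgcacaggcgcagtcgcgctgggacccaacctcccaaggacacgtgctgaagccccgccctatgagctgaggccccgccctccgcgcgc
Msh6: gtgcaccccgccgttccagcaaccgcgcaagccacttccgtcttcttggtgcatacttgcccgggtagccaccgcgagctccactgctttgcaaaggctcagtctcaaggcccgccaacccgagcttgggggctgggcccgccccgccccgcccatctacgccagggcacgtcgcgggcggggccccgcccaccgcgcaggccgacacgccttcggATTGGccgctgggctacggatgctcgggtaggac
Lig4: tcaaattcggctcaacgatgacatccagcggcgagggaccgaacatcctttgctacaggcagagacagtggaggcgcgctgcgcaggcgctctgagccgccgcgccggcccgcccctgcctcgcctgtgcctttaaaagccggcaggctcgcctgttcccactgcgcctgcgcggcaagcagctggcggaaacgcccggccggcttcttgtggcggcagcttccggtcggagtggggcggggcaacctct
Parp1 holds the hexamer as its reverse complement, Msh6 holds CCAAT as its reverse complement, and the Lig4 window holds none of the motifs.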

How the data were processed

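Total RNA of 5 MEF cultures was sequenced, 1 library per culture, grouped by their labels. The authors deposited 4 tables of FPKM per locus, each setting EV against 1 other library, made with TopHat, Cufflinks, Cuffdiff and the mm9 build per the submitters' processing notes; versions, annotation, strand and the handling of overlapping or near-identical genes are not given in the sources used here. The p-values and q-values that the authors deposited, from a test of 1 library against 1, were not used. Cuffdiff's status was FAIL for 25 members in the M table and for 10 or 11 in each other. It was FAIL in every table for Chek1, Brca2, Bard1, Mre11a, Rad52, Rad54l, Xrcc3, Fanca, Fancd2 and Msh6, whose values were kept. Depth is unknown.

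Each library was scaled so that the upper quartile, over the 22338 single-gene loci that reached 1 FPKM in some library, was 10. Loci at 1 scaled unit or more in 1 of the 2 libraries compared were kept: 12753 for WT, 12183 for M, 12065 for MP and 12225 for P against EV, 12438 for WT against P, 11753 for MP against P and 11825 for MP against M. A pseudocount of 1 was added, which understates ratios of low genes, and 1.5-fold and 2-fold were the limits counted on that scale. For orders among libraries, 12975 loci at 1 or more in any library were used. A symbol with several loci (6 members) was read at its locus of highest mean log2(FPKM + 1). All members were named, and of the other pathway genes those 2-fold apart from EV and the 3 highest and 3 lowest ratios of WT to EV per list; Mcm4, and the Rpa1 and Top2a values in P, were chosen after their values were seen, and some genes are not reported here. Members and lists were chosen with earlier results of these data known. Alternatives were no scaling, median scaling, a pseudocount of 0.1, a filter at 5 or none, joined loci left out, a 2-fold limit and sums over loci. Python 3.11.15, pandas 2.3.3, numpy 2.4.6 and matplotlib 3.10.9 were used, and the scaling was tested on simulated data.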

Additional observations from a re-analysis of the deposited data

Results flagged for a closer look

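Some members have a further locus that the comparisons did not use. At a second Atr locus the level was 0.72 in EV, 1.02 in P, 1.64 in WT, 1.12 in M and 0.75 in MP, so the log2 ratio of WT to EV was 0.62, where the main Atr locus gave -0.11. At a second Brca1 locus, which the assembly joined with Rdm1, the level was 6.25 in EV, 14.4 in P, 4.67 in WT, 6.79 in M and 6.26 in MP, so the ratio of P to EV was 1.09, where the main Brca1 locus gave -0.13. Rdm1, a RAD52-like gene, cannot be separated from Brca1 at that locus. Both were noted because they lie in data outside the main measurement, and with 1 library per group no spread within a group could be examined.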

How the results depend on the processing

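No paired analysis was possible because each group has 1 library, and for the same reason no library could be left out. The scaling changed most. On FPKM as deposited, 31 members were 1.5-fold higher in M and 31 lower in each of P, MP and WT, with 0 higher in WT; the medians were 1.49 for M, -3.82 for P and -3.87 for both MP and WT, beside 1.28, -3.33, -3.45 and -3.20 over all loci. WT was then the lowest library for 6 members and the highest for 0. With the libraries scaled to their median, the member medians were -0.50 in WT, 0.11 in M, 0.0204 in P (sign turned) and 0.41 in MP (sign turned); Lig4 was the 1 member lower in P (40.2% of loci) and the 1 higher in MP (10.4% of loci), 8 were lower in WT than EV (54.5% of loci) and 6 lower in WT than P (18.8% of loci); and WT was lowest for 29 and highest for 1. A pseudocount of 0.1 gave medians of 0.047 in M and -0.16 in WT and counts of 1 lower in P (Lig4) and 2 lower in WT (Chek1 and Lig4). Keeping loci at 5 or more gave 0.0286 in M. Without the joined loci the medians were -0.13 in WT, 0.0528 in M, -0.0146 in MP and -0.0061 in P, with 0 lower in WT because Chek1 was left out. Summing a symbol's loci gave 0.0184 in P (sign turned) and -0.10 in WT, with 1 (Brca1) lower in WT than P. At 2-fold, 0 were lower and 0 higher in WT. Leaving out the filter changed no count or median by more than the limit set. Setting WT against P and MP alone, chosen after seeing the data, again gave 18 members lowest in WT. That count could not be lower, because a member below every hypomorphic line is below P and MP. Why the scalings differ was not tested; Prkdc, Lig4 and Chek1 kept the sign of their WT ratios under median scaling. With no counts or depth, no interval could be given.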
